A study of Danio rerio with 17 samples.

Results

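Sox10-high and sox10-low cells sorted from the same eye tumours of adult zebrafish were compared in 8 of the 17 RNA-seq libraries of the series. The members are the 4 libraries labelled Cancer Sox10 High (Cancer_High) and the 4 labelled Cancer Sox10 Low (Cancer_Low), chosen by their labels and paired by the tissue codes OT2, OT3, OT4 and OT5. All 8 come from fish that carry the tg(sox10:RFP) reporter and are homozygous for brca2 hg5, so both fractions share the mutant genotype and neither is wild type. The fish were 7.5 months old for OT2, 8.1 for OT3, 8.1 for OT4 and 10.4 for OT5. RFP, a red fluorescent protein, was driven by sox10 regulatory sequence, and cells of the dissociated ocular tissue were separated by flow cytometry into an RFP-positive and an RFP-negative fraction. The labels call the first cancer cells and the second cancer microenvironment. They give neither the gates nor the number of cells, and they do not say that each tissue code is a separate fish. The p-values therefore measure the spread between these 4 pairs of samples.

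Sox10 is a transcription factor of the neural crest, the embryonic cell population that gives rise to pigment cells, Schwann cells and other peripheral glia. The series is described as a model of malignant peripheral nerve sheath tumour, a sarcoma of the Schwann cell lineage. Zebrafish have several neural crest pigment cell types, among them black melanophores, yellow xanthophores and iridophores, which hold reflecting purine crystals and need the receptor tyrosine kinase ltk. A tumour also holds immune cells, fibroblasts, vessels and epithelium, which do not use sox10 in general and are collected in a reporter-negative gate.

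The 8 libraries held 73123965 to 87244522 counts over 31701 gene IDs, with 23491 to 24179 genes detected. Fractions separated along the first principal component of log2 CPM (60.2% of the variance), with Cancer_High at -147 to -112 and Cancer_Low 1 to 3 at 147 to 186. Cancer_Low 4 (OT5) lay between them at 27.5, so values without OT5 are given below for calls that were lost and for list counts of 4 or more that moved by over 1.5 times. Levels are given as CPM on TMM-scaled library totals, and groups of 4 values follow the tissue order OT2, OT3, OT4, OT5. A log2 fold change is Cancer_High relative to Cancer_Low, given ± SE. Of the defining markers of other cell types, CRYAA of the lens had 0 counts in all 8 libraries. No values were obtained for the erythrocyte marker hbba1, and the other markers had counts in both fractions. The label of the High fraction as cancer cells was taken as given.

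The sort was checked first with the reporter's own gene. SOX10 (ENSDARG00000077467) measured 701, 1290.4, 873 and 1022 CPM in Cancer_High and 69.7, 14.96, 44.9 and 383 CPM in Cancer_Low. All 4 pairs rose from Low to High and the groups did not overlap, but Cancer_Low 4 held a far higher level than each other Cancer_Low library. The log2 fold change was 3.84 ± 0.80 (SE), adjusted p = 0.00973, and the adjusted p was 0.0531 without OT4. As the cells were sorted on this gene's reporter, the difference describes the sort and is not a finding. brca2 (ENSDARG00000079015), the mutated repair gene, measured 11.9, 9.19, 8.74 and 9.03 CPM in Cancer_High and 17.99, 19.6, 23.3 and 8.37 CPM in Cancer_Low, and its log2 fold change of -0.75 ± 0.33 did not pass the test (adjusted p = 0.115). It was lower in Cancer_High in OT2, OT3 and OT4 and not in OT5. Counts do not show the brca2 alleles, so the genotype rests on the labels.

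Of the 20916 genes tested, 3086 were higher (14.8%) and 4408 lower (21.1%) in Cancer_High at an adjusted p under 0.05. Over all genes the median was 0.06 on the log2 scale. The 4 libraries of each group did not overlap for 2531 genes that were higher (12.1%) and 3911 that were lower (18.7%). Without OT2, OT3, OT4 and OT5 in turn, 947, 1341, 1046 and 3574 genes were higher and 2791, 3278, 3149 and 4814 lower. A call was kept without each tissue in turn by 694 genes that were higher (3.32%) and 2617 that were lower (12.5%). In bulk samples, fewer cells of a type and less RNA per cell cannot be told apart, and this applies to each difference below. The counts for gene lists are to be read beside the 14.8% higher and 21.1% lower of all genes, and numbers under other settings are given where a count of 4 or more moved by over 1.5 times or a count of 0 did not hold. Counts of 1 to 3 rest on too few genes to be read as a pattern.

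Each tissue was also compared with the calls made from the other 3, a value added after the data were seen. Of 946 genes higher in the other tissues, 98.2% were higher in the OT2 pair as well, with a median log2 difference of 1.96. For OT3 the share was 96.5% of 1335 genes, with a median of 2.25, and for OT4 it was 97.0% of 1040 genes, with a median of 1.84. In OT5, 85.4% of 3564 such genes were higher, with a median of 0.60 where the other 3 tissues gave 1.68. Genes that were lower in the other tissues had median differences of -3.93, -3.58 and -3.74 in OT2, OT3 and OT4, and -1.93 in OT5. OT5 thus kept the direction for most genes with a smaller difference between its fractions.

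**Figure D1:**
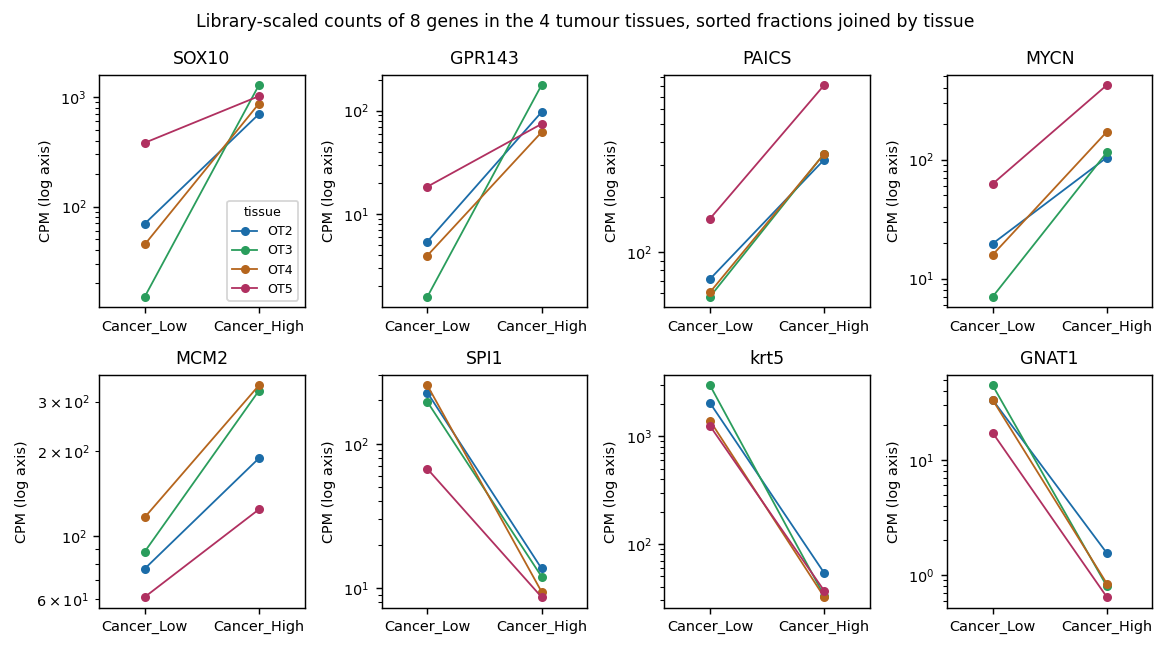
CPM (log axis, a different range in each panel) of 8 genes in Cancer_Low and Cancer_High, with 1 line for each tissue. All 4 lines rise for SOX10, GPR143, PAICS, MYCN and MCM2 and fall for SPI1, krt5 and GNAT1, and the Cancer_Low value of OT5 is the highest of 4 for SOX10, GPR143, PAICS and MYCN.

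The largest rises among well expressed genes were led by S100B (ENSDARG00000057598), a calcium-binding protein of Schwann cells and glia. S100B measured 22.4, 453, 42.1 and 178 CPM in Cancer_High and 1.94, 5.39, 0.438 and 19.1 CPM in Cancer_Low. Every Cancer_High library was above every Cancer_Low library, as the choice of these genes required. The log2 fold change was 4.91 ± 0.73 (adjusted p = 0.00257). Next came hsc70 (ENSDARG00000012381), a heat shock protein 70 family gene, with 49.0, 68.2, 7.88 and 81.5 CPM in Cancer_High and 3.88, 1.85, 0.428 and 4.97 CPM in Cancer_Low. Its groups did not overlap either, by the same requirement, and its log2 fold change was 4.27 ± 0.35 (adjusted p = 0.000284). defbl1 (ENSDARG00000075161), a beta-defensin-like gene, measured 791, 1632, 1579 and 1052 CPM in Cancer_High and 54.8, 17.4, 93.8 and 367 CPM in Cancer_Low. apoda.1 (ENSDARG00000060345), which encodes an apolipoprotein D, measured 675, 727, 1132 and 959 CPM in Cancer_High and 44.1, 5.64, 84.5 and 322 CPM in Cancer_Low. The log2 fold changes were 3.99 ± 0.79 and 3.98 ± 0.85 (adjusted p = 0.00798 and 0.0106), and for both genes Cancer_Low 4 was the highest Low library. PHACTR3 (ENSDARG00000058243), cyp2n13 (ENSDARG00000042953), GDAP1L1 (ENSDARG00000028628), mfsd8l2 (ENSDARG00000076959), pcdh7a (ENSDARG00000078898) and lnc.433 (ENSDARG00000099842) had log2 fold changes of 3.73 to 3.97 (adjusted p 0.00207 to 0.0085). PHACTR3 encodes a regulator of protein phosphatase and actin, cyp2n13 a cytochrome P450, GDAP1L1 a member of the glutathione transferase-like GDAP1 family, pcdh7a a protocadherin, and lnc.433 is annotated as a long noncoding RNA by its name. Without the replicate block the adjusted p was 0.0871 for pcdh7a. GPR143 and PCDH10 (ENSDARG00000102824), which complete the 12 rises chosen this way, are described with their groups.

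The 12 largest falls under the same rule were 9 epithelial genes, 2 immune genes and a coagulation factor gene. lyz (ENSDARG00000057789), the lysozyme of neutrophils and macrophages, measured 1.17, 14.4, 2.91 and 0.702 CPM in Cancer_High and 103, 562, 67.3 and 122 CPM in Cancer_Low. OT3 held the highest value in both fractions, and the log2 fold change was -5.90 ± 0.56 (adjusted p = 0.000404). nkl.2 (ENSDARG00000058673), an NK-lysin, measured 1.23, 1.19, 0.576 and 5.02 CPM in Cancer_High and 126, 27.1, 91.1 and 105.1 CPM in Cancer_Low (-5.69 ± 0.63, adjusted p = 0.000733). f5 (ENSDARG00000055705), coagulation factor V, measured 1.81, 12.03, 0.407 and 0.336 CPM in Cancer_High and 150.1, 559, 30.6 and 13.5 CPM in Cancer_Low (-5.87 ± 0.33, adjusted p = 0.000259), with OT3 again the highest in both fractions. The epithelial genes were epcam (ENSDARG00000040534), the desmosomal genes dsg2.1 (ENSDARG00000076945) and pkp3a (ENSDARG00000051861), the keratins krt5 (ENSDARG00000058371) and krt15 (ENSDARG00000036840), and the claudins cldna (ENSDARG00000069888), cldnb (ENSDARG00000009544), cldni (ENSDARG00000054616) and cldn7b (ENSDARG00000014047). They fell by log2 fold changes of -5.67 to -5.37 (adjusted p 0.000259 to 0.000284), and the lack of overlap between their groups was required by the rule.

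**Figure D2:**
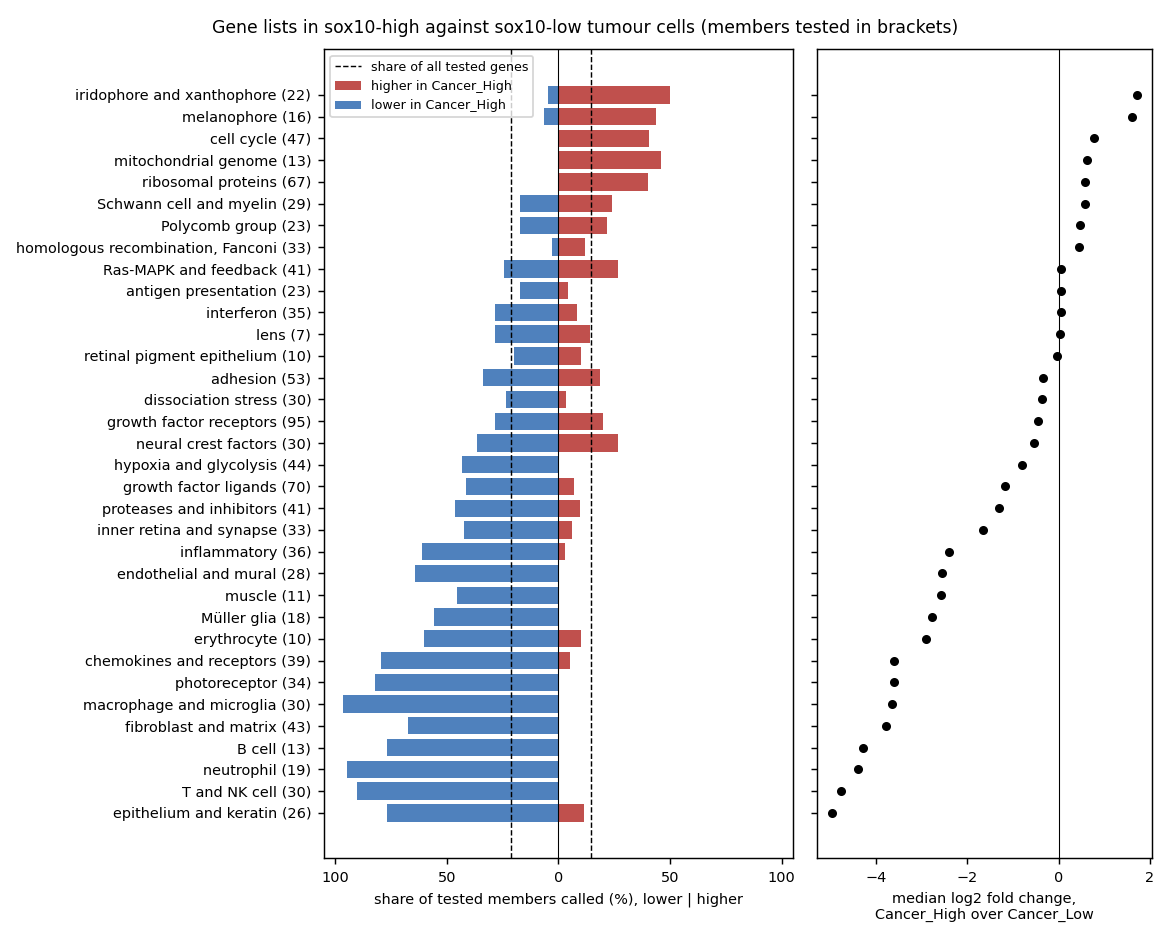
Left, the share of each gene list's tested members that was called higher or lower in Cancer_High (%), with dashed lines at the shares of all tested genes (14.8% higher, 21.1% lower). Right, the median log2 fold change of each list. Pigment cell, cell cycle, ribosomal and mitochondrial lists lie at the top, and epithelial and immune lists at the bottom.

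Neural crest factors were called in both directions. Of 30 tested genes, SOX10 included, among regulators of neural crest, Schwann cell precursors and melanoblasts, 8 were higher, 11 lower and 11 did not pass, with a median of -0.54. MYCN (ENSDARG00000006837), a proliferation-driving transcription factor, measured 104, 115, 171 and 422 CPM in Cancer_High and 19.7, 7.05, 15.9 and 62.6 CPM in Cancer_Low. The groups did not overlap, OT5 was highest in both fractions, and the log2 fold change was 3.15 ± 0.34 (adjusted p = 0.00066). snai2 (ENSDARG00000040046), a factor of crest migration, rose by 1.64 ± 0.31 (adjusted p = 0.0071), although Cancer_High 2, at 15.6 CPM, lay below the highest Cancer_Low library. twist1a (ENSDARG00000030402), a mesenchymal factor, measured 1.46, 1.26, 1.28 and 1.29 CPM in Cancer_High and 22.6, 13.6, 17.6 and 5.92 CPM in Cancer_Low and fell by a log2 fold change of -3.35 ± 0.42 (adjusted p = 0.00123). SOX9 (ENSDARG00000043923), which acts beside sox10 in early crest and also in glia and cartilage, measured 0.56, 0.413, 0.674 and 0.483 CPM in Cancer_High and 4.02, 3.75, 6.04 and 2.02 CPM in Cancer_Low and fell (-2.82 ± 0.46, adjusted p = 0.00349). erbb3b (ENSDARG00000036993), the neuregulin receptor that guides Schwann cell precursors along nerves, measured 0.235, 1.15, 0.548 and 2.30 CPM in Cancer_High and 18.8, 18.6, 7.11 and 6.97 CPM in Cancer_Low. It was lower in Cancer_High in every pair (-3.86 ± 0.77, adjusted p = 0.00845), with an adjusted p of 0.0223 without OT2. The counts without OT2, OT3, OT4 and OT5 in turn were 5, 5, 3 and 10 higher and 5, 6, 6 and 11 lower. Neural crest factors called higher numbered 4 without the replicate block.

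Of 29 tested Schwann cell, glial and myelin genes 7 were higher and 5 lower (median 0.58), against 14.8% and 21.1% of all genes. prx (ENSDARG00000017246), periaxin of the Schwann cell, rose in each pair with overlap between tissues, at 10.9, 1.75, 0.927 and 10.5 CPM in Cancer_High and 2.004, 0.343, 0.139 and 2.63 CPM in Cancer_Low (2.37 ± 0.39, adjusted p = 0.00358). SOX6 (ENSDARG00000015536), a partner of SOX family factors in glia and pigment cells, rose by 2.66 ± 0.37 (adjusted p = 0.00183). mag (ENSDARG00000104023), myelin-associated glycoprotein, was at 0.143, 0.206, 0.0422 and 0.19 CPM in Cancer_High and 0.265, 0.37, 0.139 and 0.0663 CPM in Cancer_Low, and did not pass (adjusted p = 0.622). The fit without the replicate block gave an adjusted p of 0.14 for prx. Leaving out OT2, OT3, OT4 and OT5 in turn, 5, 5, 5 and 10 members were higher and 0, 3, 2 and 8 lower. Schwann cell genes called lower numbered 3 without the replicate block, in all 17 libraries with the block, with a filter of 1 CPM in 4 libraries and without the block and Cancer_Low 4, and 8 by DESeq2.

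The pigment cell lists had the highest medians of all lists. Of 16 tested melanin synthesis and melanosome genes 7 were higher and 1 lower (median 1.60), and of 22 iridophore and xanthophore genes 11 were higher and 1 lower (median 1.71). GPR143 (ENSDARG00000034572), a melanosome receptor, measured 96.8, 177, 61.9 and 74.4 CPM in Cancer_High and 5.42, 1.58, 3.97 and 18.4 CPM in Cancer_Low. All Cancer_High values exceeded all Cancer_Low values (4.17 ± 0.76, adjusted p = 0.00568). MLPH (ENSDARG00000070991), which links melanosomes to their motor, and DCT (ENSDARG00000006008), a melanin synthesis enzyme, rose by 3.57 ± 0.57 and 3.55 ± 0.61 (adjusted p = 0.00341 and 0.00463). pmela (ENSDARG00000091298), the amyloid scaffold of the melanosome, measured 8.34, 3.02, 8.95 and 23.6 CPM in Cancer_High and 2.91, 1.14, 1.24 and 3.01 CPM in Cancer_Low, with no overlap (2.19 ± 0.43, adjusted p = 0.00771). tspan36 (ENSDARG00000024540), a tetraspanin of pigment cells, went the other way, at 40.3, 80.0, 135 and 53.8 CPM in Cancer_High and 301, 279, 293 and 123 CPM in Cancer_Low (-1.74 ± 0.35, adjusted p = 0.00867). The melanophore regulator mitfa had no ID of its own name. Of the IDs listed under MITF, MITF (ENSDARG00000003732) had a log2 fold change of 0.53 ± 0.31 and MITF (ENSDARG00000037833) one of -1.29 ± 0.46, and neither passed (adjusted p = 0.215 and 0.0613). When OT2, OT3, OT4 and OT5 were each left out, 4, 6, 4 and 7 melanophore genes were higher and 1, 1, 1 and 3 lower. Melanin genes called higher numbered 4 without the replicate block.

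Iridophores need large amounts of purine for their crystals, and enzymes of purine synthesis were among the members that rose. Whether the rise of these enzymes comes from iridophores was not tested. PAICS (ENSDARG00000033539) measured 319, 344, 343 and 812 CPM in Cancer_High and 71.6, 57.4, 60.7 and 152 CPM in Cancer_Low. Each Cancer_High library exceeded each Cancer_Low library, and OT5 was highest in both fractions (2.41 ± 0.23, adjusted p = 0.000391). ATIC (ENSDARG00000016706) and GART (ENSDARG00000101089), which act in the same pathway, rose by 2.26 ± 0.29 and 1.63 ± 0.26 (adjusted p = 0.00134 and 0.00315). TFEC (ENSDARG00000098745), a transcription factor of the iridophore lineage, measured 381, 235, 318 and 568 CPM in Cancer_High and 92.5, 58.9, 79.1 and 205 CPM in Cancer_Low (1.88 ± 0.24, adjusted p = 0.0012). pnp4a (ENSDARG00000057575), a purine phosphorylase that marks iridophores, measured 1264, 659.6, 1413 and 1714 CPM in Cancer_High and 94.1, 9.11, 84.0 and 797 CPM in Cancer_Low. It was higher in every Cancer_High pair, and Cancer_Low 4 stood above the other Cancer_Low libraries and above Cancer_High 2 (3.82 ± 0.80, adjusted p = 0.0101). The exception in the list was csf1ra (ENSDARG00000102986), the xanthophore and macrophage receptor for colony stimulating factor, at 10.5, 19.02, 16.5 and 15.1 CPM in Cancer_High and 311, 333, 423 and 111 CPM in Cancer_Low (-4.16 ± 0.41, adjusted p = 0.000454). Leaving out OT2, OT3, OT4 and OT5 in turn gave 8, 10, 6 and 13 members higher and 1, 1, 1 and 2 lower, and the fit without the replicate block gave 4 higher. The call was lost for pnp4a without OT4 (adjusted p = 0.0537). For pnp4a the adjusted p was 0.118 without the replicate block.

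Growth factor ligands and receptors included members that were higher and members that were lower. Of 70 tested ligands 5 were higher and 29 lower (median -1.16). Of 95 tested receptors 19 were higher and 27 lower (median -0.44), shares near the 14.8% and 21.1% of all genes. Among the ligands, egf (ENSDARG00000052739), epidermal growth factor, measured 258, 279, 163 and 412 CPM in Cancer_High and 27.6, 3.70, 4.67 and 236 CPM in Cancer_Low. TGFA (ENSDARG00000053939), a further ligand of the EGF receptor, measured 181, 228, 218 and 299 CPM in Cancer_High and 25.3, 3.02, 13.2 and 203 CPM in Cancer_Low. For both genes 3 pairs were far apart and the OT5 pair was close, at log2 differences of 0.81 and 0.56. The log2 fold changes were 3.95 ± 0.94 and 3.42 ± 0.91 (adjusted p = 0.0164 and 0.0236). EGFR (ENSDARG00000013847), their receptor, measured 9.76, 1.90, 14.8 and 6.13 CPM in Cancer_High and 85.3, 46.8, 54.6 and 38.8 CPM in Cancer_Low and was lower in Cancer_High without overlap (-3.05 ± 0.47, adjusted p = 0.00278). Its relative ERBB2 (ENSDARG00000026294), a co-receptor of the same family, measured 41.1, 21.6, 31.6 and 72.8 CPM in Cancer_High and 16.2, 5.48, 4.29 and 55.6 CPM in Cancer_Low and rose in each pair (1.65 ± 0.42, adjusted p = 0.0205). The ERBB2 groups overlapped. The adjusted p rose above 0.05 for egf without OT4 (adjusted p = 0.0778) and TGFA without OT2 and OT4 (adjusted p = 0.0676 and 0.103). A call did not hold for ERBB2 without OT2, OT3 and OT4 (adjusted p = 0.0616, 0.071 and 0.0691). Without the replicate block the adjusted p was 0.206, 0.181 and 0.329 for egf, TGFA and ERBB2. Without OT2, OT3, OT4 and OT5 in turn, 2, 4, 1 and 8 ligands were higher and 12, 19, 15 and 27 lower.

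Other ligands were mostly lower in Cancer_High. NRG1 (ENSDARG00000104314), the neuregulin read by erbb3b, measured 9.53, 0.851, 6.81 and 3.77 CPM in Cancer_High and 18.3, 28.4, 16.3 and 17.96 CPM in Cancer_Low (-2.24 ± 0.69, adjusted p = 0.0395). HBEGF (ENSDARG00000031246), a membrane-bound EGF family ligand, was lower in every pair (-2.04 ± 0.36, adjusted p = 0.00523). The platelet-derived growth factors PDGFA (ENSDARG00000098578) and pdgfba (ENSDARG00000086778) and the vascular factors VEGFC (ENSDARG00000069640) and VEGFA (ENSDARG00000034700) fell by log2 fold changes of -4.1 to -1.67 (adjusted p 0.00156 to 0.00387). Midkine, a heparin-binding growth factor of neural tissue, is present as more than 1 ID of that symbol, and the IDs named here differed in direction. MDK (ENSDARG00000020708) measured 7.60, 16.9, 151 and 24.9 CPM in Cancer_High and 2.67, 8.37, 12.7 and 3.79 CPM in Cancer_Low and rose (2.2 ± 0.46, adjusted p = 0.0101). MDK (ENSDARG00000036036) measured 5.92, 5.32, 5.70 and 7.53 CPM in Cancer_High and 187, 104, 92.8 and 90.2 CPM in Cancer_Low and fell (-4.22 ± 0.33, adjusted p = 0.000259). The test was no longer passed by NRG1 without OT2, OT4 and OT5 (adjusted p = 0.0554, 0.0727 and 0.0874). The fit without the replicate block gave an adjusted p of 0.101 for HBEGF. How reads shared between such copies were counted is not given in the sources used here. Growth factor ligands called higher numbered 1 without the replicate block, and 2 in all 17 libraries without the block.

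More receptors fell (27) than rose (19), and the receptors named in this paragraph are ones that rose. EGFR, erbb3b, csf1ra and csf1rb, which fell, are described in other paragraphs. Receptors that rose included ltk (ENSDARG00000042861), the iridophore receptor tyrosine kinase. It measured 872, 537, 4694 and 1506 CPM in Cancer_High and 117, 8.20, 316 and 478 CPM in Cancer_Low. The groups did not overlap, OT4 was far above the other Cancer_High libraries, and the log2 fold change was 3.56 ± 0.70 (adjusted p = 0.0077). MET (ENSDARG00000070903), the hepatocyte growth factor receptor, measured 61.3, 119.7, 60.0 and 222 CPM in Cancer_High and 11.8, 4.17, 2.03 and 82.5 CPM in Cancer_Low. Every pair rose, while Cancer_Low 4 exceeded Cancer_High 1 and 3 (3.39 ± 0.69, adjusted p = 0.00881). EDNRB (ENSDARG00000089334), an endothelin receptor of neural crest and pigment cells, measured 88.3, 98.0, 238 and 166 CPM in Cancer_High and 14.1, 1.36, 16.8 and 152 CPM in Cancer_Low (3.2 ± 0.96, adjusted p = 0.0353). Its fractions differed in OT2, OT3 and OT4 and were close in OT5. The guidance receptors epha7 (ENSDARG00000004635), ROBO1 (ENSDARG00000026784) and EPHB2 (ENSDARG00000021539), the semaphorin co-receptors NRP1 (ENSDARG00000102153) and NRP2 (ENSDARG00000038446) and the Wnt receptor FZD7 (ENSDARG00000027589) rose by 1.94 to 2.87 (adjusted p 0.0019 to 0.0333). Only epha7 and ROBO1 among these had no overlap between the groups. The call was lost for EDNRB (ENSDARG00000089334) without OT2, OT3 and OT4 (adjusted p = 0.0924, 0.0662 and 0.14) and NRP1 without OT2, OT4 and OT5 (adjusted p = 0.0642, 0.0654 and 0.0537). The adjusted p rose above 0.05 for NRP2 (ENSDARG00000038446) without OT4 (adjusted p = 0.0638). For ltk, MET, EDNRB (ENSDARG00000089334), EPHB2 (ENSDARG00000021539), NRP2 (ENSDARG00000038446) and FZD7 (ENSDARG00000027589) the adjusted p was 0.0598, 0.143, 0.258, 0.119, 0.079 and 0.278 without the replicate block. The number of receptors that rose was 10, 12, 7 and 19 without OT2, OT3, OT4 and OT5 in turn. The corresponding numbers for receptors that fell were 15, 21, 21 and 29, and 23 without the block. Growth factor receptors called higher numbered 5 without the replicate block, and 8 in all 17 libraries without the block.

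**Figure D3:**
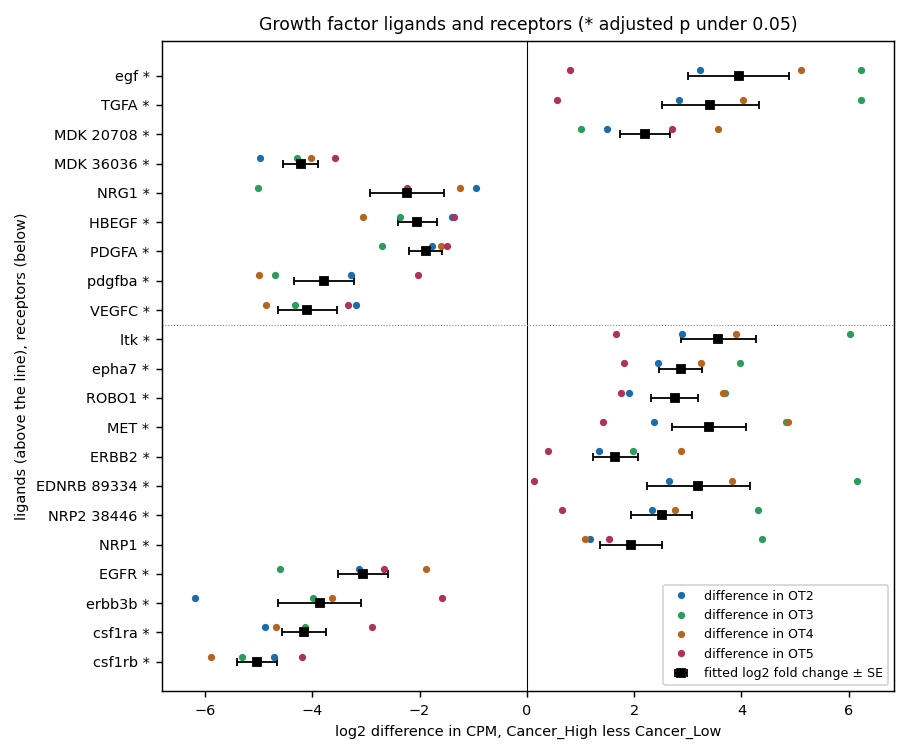
Log2 difference in CPM, Cancer_High less Cancer_Low, of growth factor ligands (above the dotted line) and receptors (below). Squares are fitted log2 fold changes with SE bars, coloured points the differences of single tissues, and numbers after a symbol the last digits of its ID. egf, TGFA and MDK (ENSDARG00000020708) and the receptors from ltk to NRP1 lie to the right of 0, and for egf, TGFA, EDNRB and ERBB2 the OT5 point is the closest to 0.

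Downstream of such receptors, of 41 tested Ras-MAPK output and feedback genes 11 were higher and 10 lower (median 0.06). SPRY2 (ENSDARG00000078308), a feedback inhibitor of receptor tyrosine kinases, measured 59.9, 37.8, 74.2 and 34.5 CPM in Cancer_High and 24.9, 17.1, 22.1 and 18.6 CPM in Cancer_Low, without overlap (1.26 ± 0.25, adjusted p = 0.00802). NF1 (ENSDARG00000004184) and RASA1 (ENSDARG00000073665), which switch Ras off, rose by 1.64 ± 0.36 and 1.91 ± 0.29 (adjusted p = 0.0116 and 0.00251). NF1 is the gene lost in neurofibromatosis and in many human nerve sheath tumours. DUSP5 (ENSDARG00000019307), a phosphatase of nuclear ERK, measured 13.6, 20.3, 19.8 and 7.61 CPM in Cancer_High and 274, 281, 219 and 47.0 CPM in Cancer_Low and fell (-3.56 ± 0.35, adjusted p = 0.000441). DUSP1 (ENSDARG00000100515), an immediate early phosphatase, measured 340.1, 222, 336 and 222 CPM in Cancer_High and 1168, 747, 1718 and 538 CPM in Cancer_Low (-1.79 ± 0.25, adjusted p = 0.00195). DUSP1 is also on the list of genes that dissociation of tissue can induce, of which 1 rose and 7 fell among 30 tested. The part of cell dissociation in these differences was not tested. Fitted without OT2, OT3, OT4 and OT5 in turn, 4, 4, 3 and 10 Ras-MAPK genes were higher and 4, 5, 4 and 11 lower, and 5, 6, 5 and 14 dissociation genes were lower. A call did not hold for NF1 (ENSDARG00000004184) without OT2 (adjusted p = 0.0521). Ras-MAPK genes called higher numbered 4 without the replicate block, and 6 in all 17 libraries without the block. Dissociation stress genes called lower numbered 11 without the block and Cancer_Low 4.

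Of 53 tested adhesion genes 10 were higher and 18 lower (median -0.34), against 14.8% and 21.1% of all genes. PCDH10 (ENSDARG00000102824), a protocadherin, measured 269.8, 650.0, 430.1 and 436 CPM in Cancer_High and 22.7, 9.72, 22.7 and 138 CPM in Cancer_Low, and PCDH18 (ENSDARG00000089805), a further member of that family, measured 258, 125, 299 and 208 CPM in Cancer_High and 37.5, 3.09, 21.0 and 27.6 CPM in Cancer_Low. Neither gene's groups overlapped (3.89 ± 0.71 and 3.68 ± 0.48, adjusted p = 0.00572 and 0.00144). PCDH10 (ENSDARG00000099729) and ALCAM (ENSDARG00000026531), an immunoglobulin family adhesion molecule, rose by 2.74 ± 0.38 and 2.88 ± 0.42 (adjusted p = 0.00182 and 0.00227). The leukocyte integrin itgb2 (ENSDARG00000016939) and the basal epithelial integrin ITGB4 (ENSDARG00000028507) fell, by log2 fold changes of -4.47 ± 0.32 and -4.71 ± 0.38 (adjusted p = 0.000259 and 0.000269). Leaving out OT2, OT3, OT4 and OT5 in turn, 9, 8, 6 and 14 adhesion genes were higher. Adhesion genes called higher numbered 6 without the replicate block.

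Cell cycle genes that passed the test were all higher. Of 47 tested genes of DNA replication and mitosis 19 were higher in Cancer_High and 0 lower, with a median of 0.78. MCM2 (ENSDARG00000102798), a subunit of the replicative helicase, measured 189, 328, 342 and 125 CPM in Cancer_High and 76.8, 88.3, 117 and 60.9 CPM in Cancer_Low. Its groups did not overlap (1.44 ± 0.25, adjusted p = 0.00456), and OT5 was the lowest tissue in both fractions. MCM7 (ENSDARG00000101180), TPX2 (ENSDARG00000078654) and CKS1B (ENSDARG00000007971), a helicase subunit, a spindle assembly factor and a cyclin-dependent kinase subunit, rose by 1.26 to 1.45 (adjusted p 0.00545 to 0.00793). PCNA (ENSDARG00000054155), the replication clamp, measured 379.9, 555, 241 and 214 CPM in Cancer_High and 170.1, 203, 260.1 and 146 CPM in Cancer_Low and did not pass (adjusted p = 0.0896). It was lower in the High fraction in OT4. The summed level of the list was 2384 to 3899 CPM in Cancer_High and 1407 to 2359 CPM in Cancer_Low. The number higher was 4, 5, 14 and 15 without OT2, OT3, OT4 and OT5 in turn. Cell cycle genes called higher numbered 5 in all 17 libraries without the block, 6 in all 17 libraries with the block, 8 without the block and Cancer_Low 4, and 10 without the replicate block.

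Ribosomal protein genes and genes of the mitochondrial genome showed smaller differences of the same sign. Of 67 tested ribosomal protein genes 27 were higher and 0 lower (median 0.59), among them RPL11 (ENSDARG00000043509) at 2382, 2575, 2271 and 3905 CPM in Cancer_High and 1060.5, 1004, 998 and 1712 CPM in Cancer_Low (1.23 ± 0.20, adjusted p = 0.00327). RPS10 (ENSDARG00000034897) rose by 0.99 ± 0.20 (adjusted p = 0.00842). Of 13 mitochondrial genes 6 were higher and 0 lower (median 0.62). MT-ND1 (ENSDARG00000063895), a subunit of respiratory complex I, measured 2255, 2587, 2427 and 2174 CPM in Cancer_High and 1423, 1088, 1435 and 1397 CPM in Cancer_Low, without overlap (0.83 ± 0.21, adjusted p = 0.021). Without OT2, OT3, OT4 and OT5 in turn, 8, 6, 7 and 28 ribosomal and 0, 0, 0 and 3 mitochondrial genes were higher, while the medians stayed between 0.48 and 0.70. The test was no longer passed by MT-ND1 without OT2, OT3 and OT4 (adjusted p = 0.0702, 0.106 and 0.0594). Mitochondrial genes called higher numbered 1 in all 17 libraries with the block.

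Of 33 tested homologous recombination and Fanconi anaemia genes, the pathway in which brca2 acts, 4 were higher and 1 lower (median 0.46). FANCD2 (ENSDARG00000053574), a central protein of the Fanconi pathway, measured 30.7, 30.7, 36.4 and 20.9 CPM in Cancer_High and 14.2, 14.3, 21.6 and 15.8 CPM in Cancer_Low and rose by 0.84 ± 0.25 (adjusted p = 0.0361), and RAD51B (ENSDARG00000037046) fell (-1.49 ± 0.34, adjusted p = 0.0131). The share that was higher was near that of all genes, and it was 0, 0, 1 and 3 members without OT2, OT3, OT4 and OT5 in turn. Of 23 Polycomb group genes 5 were higher and 4 lower (median 0.48), again near the 14.8% and 21.1% of all genes. The members named next were higher ones, and the number lower was 4 as well without the replicate block, by DESeq2 and by limma voom. SUZ12 (ENSDARG00000098924), a core subunit of Polycomb repressive complex PRC2, measured 73.8, 52.2, 53.4 and 104 CPM in Cancer_High and 39.1, 28.0, 40.7 and 54.2 CPM in Cancer_Low (0.79 ± 0.23, adjusted p = 0.0343), and cbx7a (ENSDARG00000038025), a subunit of the other Polycomb complex, rose by 1.36 ± 0.29 (adjusted p = 0.0106). Without OT2, OT3, OT4 and OT5 in turn, 1, 2, 1 and 3 Polycomb genes were higher and 1, 2, 1 and 4 lower. The call was lost for FANCD2 without OT2, OT3 and OT4 (adjusted p = 0.156, 0.121 and 0.0954) and RAD51B without OT3 and OT4 (adjusted p = 0.0517 and 0.0554). The adjusted p rose above 0.05 for SUZ12 (ENSDARG00000098924) without OT2, OT3, OT4 and OT5 (adjusted p = 0.142, 0.112, 0.0579 and 0.0547). Without the replicate block the adjusted p was 0.0832 for SUZ12 (ENSDARG00000098924). Homologous recombination genes called higher numbered 1 in all 17 libraries without the block and in all 17 libraries with the block, 2 without the replicate block and with a filter of 1 CPM in 4 libraries, and 7 by DESeq2. Polycomb genes called higher numbered 3 in all 17 libraries with the block.

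The Low fraction carried the immune transcripts. Of 30 tested macrophage and microglia genes 29 were lower in Cancer_High and 0 higher (median -3.66). The counts were 18 of 19 lower for neutrophils (median -4.41), 27 of 30 for T and NK cells (median -4.76) and 10 of 13 for B cells (median -4.28), with 0 higher in each. SPI1 (ENSDARG00000000767), the myeloid master regulator, measured 13.7, 12, 9.43 and 8.66 CPM in Cancer_High and 226, 195, 254 and 67.0 CPM in Cancer_Low. The groups were far apart, and Cancer_Low 4 was the lowest Low library (-3.95 ± 0.36, adjusted p = 0.000363). MPEG1 (ENSDARG00000055290), the macrophage perforin, measured 15.6, 16.4, 11.5 and 19.3 CPM in Cancer_High and 262, 135, 446 and 172 CPM in Cancer_Low (-3.87 ± 0.44, adjusted p = 0.000808). LCP1 (ENSDARG00000023188), the leukocyte plastin, and csf1rb (ENSDARG00000053624), a macrophage receptor for colony stimulating factor, fell by log2 fold changes of -4.60 ± 0.36 and -5.03 ± 0.37 (adjusted p = 0.000259 for each).

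Neutrophil genes fell alongside. npsn (ENSDARG00000010423), a neutrophil protease, measured 5.44, 17.8, 1.63 and 2.72 CPM in Cancer_High and 216, 559.9, 63.4 and 98.2 CPM in Cancer_Low. mmp13a (ENSDARG00000012395), a collagenase of myeloid cells, measured 12.7, 19.7, 1.76 and 3.51 CPM in Cancer_High and 538, 649.6, 109.9 and 64.7 CPM in Cancer_Low. cybb (ENSDARG00000056615), the catalytic subunit of the phagocyte oxidase, measured 11.6, 14.8, 6.20 and 5.87 CPM in Cancer_High and 305, 291, 208 and 67.4 CPM in Cancer_Low. The fractions did not overlap for any of these genes, and the log2 fold changes were -5.18 to -4.41 (adjusted p = 0.000259 for each). Among lymphocyte genes, il2rga (ENSDARG00000068858), the shared chain of interleukin receptors, measured 2.72, 3.33, 2.84 and 1.48 CPM in Cancer_High and 71.7, 86.8, 131 and 27.2 CPM in Cancer_Low (-4.79 ± 0.33, adjusted p = 0.000259). lck (ENSDARG00000102525), the T cell kinase, measured 0.534, 1.22, 1.17 and 1.07 CPM in Cancer_High and 10.7, 9.29, 68.2 and 7.87 CPM in Cancer_Low (-3.96 ± 0.59, adjusted p = 0.00251), and OT4 stood above the other Cancer_Low libraries. BTK (ENSDARG00000004433) and blnk (ENSDARG00000042722), B cell signalling genes that myeloid cells also express, had log2 fold changes of -4.67 ± 0.30 and -4.45 ± 0.37 (adjusted p = 0.000259 and 0.000284). cd79a (ENSDARG00000037473), a defining chain of the B cell receptor, measured 9.96, 11.7, 15.4 and 35.7 CPM in Cancer_High and 7.08, 16.9, 30.5 and 29.9 CPM in Cancer_Low and did not pass (-0.19 ± 0.32, adjusted p = 0.666).

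Summed over its members, the macrophage list held 609.9 to 1434 CPM in Cancer_High and 4242 to 16910.0 CPM in Cancer_Low, the neutrophil list 269.8 to 560.1 CPM in Cancer_High and 2025 to 9148 CPM in Cancer_Low, and the T and NK cell list 61.7 to 102 CPM in Cancer_High and 623 to 2567 CPM in Cancer_Low. These immune transcripts were reduced but present in Cancer_High, and whether they come from the sorted cells or from carried-over cells or RNA was not tested. Cancer_Low 4 held the lowest sum of the Low libraries for these 3 lists and for the B cell list. Leaving out OT5 gave 30, 18, 27 and 11 members lower for macrophages, neutrophils, T and NK cells and B cells.

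Chemokines and their receptors were mostly lower in Cancer_High, with 31 of 39 tested lower and 2 higher (median -3.61). CXCR4 (ENSDARG00000041959), the receptor for CXCL12, measured 18.6, 26.7, 22.8 and 20.2 CPM in Cancer_High and 446, 449, 719 and 162 CPM in Cancer_Low (-4.17 ± 0.39, adjusted p = 0.000391). CXCL12 (ENSDARG00000037116) itself, made by stromal cells, measured 2.15, 2.46, 1.17 and 0.921 CPM in Cancer_High and 68.0, 47.0, 42.1 and 10.7 CPM in Cancer_Low (-4.49 ± 0.38, adjusted p = 0.000295). cxcr3.2 (ENSDARG00000041041) and its interferon-induced ligand cxcl11.3 (ENSDARG00000102514) were both lower, at -4.21 ± 0.35 and -4.08 ± 0.38 (adjusted p = 0.000284 and 0.000373), as were ccl25b (ENSDARG00000070873) (-4.69 ± 0.48, adjusted p = 0.000546) and the neutrophil attractant cxcl8a (ENSDARG00000104795) (-3.30 ± 0.37, adjusted p = 0.000716). The exceptions were ccl19a.1 (ENSDARG00000058389), at 173, 106, 666 and 9.24 CPM in Cancer_High and 28.9, 18.7, 61.3 and 7.82 CPM in Cancer_Low, and ccl44 (ENSDARG00000074772), at 81.6, 8.63, 58.9 and 85.9 CPM in Cancer_High and 12.2, 1.78, 2.25 and 39.1 CPM in Cancer_Low. Both rose in every pair (2.25 ± 0.52 and 2.68 ± 0.57, adjusted p = 0.0148 and 0.0105), and the groups overlapped. OT5 held the lowest ccl19a.1 of both fractions. A call did not hold for ccl19a.1 without OT2, OT3 and OT4 (adjusted p = 0.0658, 0.0543 and 0.0645). The fit without the replicate block gave an adjusted p of 0.0626 and 0.147 for ccl19a.1 and ccl44. When OT2, OT3, OT4 and OT5 were each left out, 1, 1, 1 and 3 chemokine genes were higher.

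Inflammatory signal genes gave 22 of 36 lower and 1 higher (median -2.41). PTGS2 (ENSDARG00000004539), the inducible prostaglandin synthase, measured 4.65, 4.68, 2.36 and 4.17 CPM in Cancer_High and 202, 201, 122 and 77.0 CPM in Cancer_Low (-5.20 ± 0.36, adjusted p = 0.000259), and il6r (ENSDARG00000104474), the interleukin 6 receptor, also fell (-4.67 ± 0.33, adjusted p = 0.000259). csf1a (ENSDARG00000075343), a ligand of the colony stimulating factor receptors, was the member that rose. It measured 5.85, 0.387, 80.0 and 18.9 CPM in Cancer_High and 0.504, 0.145, 8.10 and 14.7 CPM in Cancer_Low, with OT3 lowest in both fractions and overlap between the groups (2.21 ± 0.61, adjusted p = 0.0272). The test was no longer passed by csf1a without OT2 and OT4 (adjusted p = 0.106 and 0.13). For csf1a the adjusted p was 0.304 without the replicate block.

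Interferon response and antigen presentation genes had medians near that of all genes. Of 35 interferon response genes 3 were higher and 10 lower, with a median of 0.05, close to the 0.06 of all genes. SOCS1 (ENSDARG00000038095), a feedback inhibitor of cytokine signalling, measured 506, 311, 446 and 407 CPM in Cancer_High and 175, 97.8, 199 and 178 CPM in Cancer_Low. It was higher in Cancer_High without overlap (1.39 ± 0.23, adjusted p = 0.00367), as was irf9 (ENSDARG00000016457), a subunit of the interferon-activated factor (1.03 ± 0.27, adjusted p = 0.0214). CGAS (ENSDARG00000021572), the sensor of cytosolic DNA, measured 1.32, 2.31, 1.71 and 0.483 CPM in Cancer_High and 34.4, 34.3, 44.6 and 7.02 CPM in Cancer_Low, and STING1 (ENSDARG00000091058), its adaptor, measured 1.66, 0.851, 1.83 and 0.995 CPM in Cancer_High and 24.7, 12.7, 46.4 and 12.1 CPM in Cancer_Low. Both were lower in Cancer_High in every pair (-4.29 ± 0.33 and -4.02 ± 0.34, adjusted p = 0.000259 and 0.000284). Of 23 antigen presentation genes 1 was higher and 4 were lower (median 0.06). The gene that rose was tap2a (ENSDARG00000036787), a peptide transporter of class I presentation (0.89 ± 0.26, adjusted p = 0.0308). Those that fell included the class II chain mhc2dab (ENSDARG00000079105) and the invariant chains cd74a (ENSDARG00000009087) and cd74b (ENSDARG00000036628), by log2 fold changes of -3.62 to -2.69 (adjusted p 0.000284 to 0.000386). cd74a measured 256, 209, 557 and 179 CPM in Cancer_High and 2802, 966, 5226 and 1449.8 CPM in Cancer_Low. Counted without OT2, OT3, OT4 and OT5 in turn, 1, 1, 2 and 5 interferon genes were higher and 6, 7, 6 and 7 lower. The call was lost for irf9 without OT2 and OT3 (adjusted p = 0.106 and 0.087) and tap2a without OT2 and OT3 (adjusted p = 0.124 and 0.125). Without the replicate block the adjusted p was 0.112 for tap2a. Interferon genes called higher numbered 6 by DESeq2 and by limma voom. Interferon genes called lower numbered 6 in all 17 libraries without the block.

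Stromal and vascular genes were lower in Cancer_High. Of 43 fibroblast and matrix genes 29 were lower and 0 higher (median -3.77), and of 28 endothelial and mural cell genes 18 were lower and 0 higher (median -2.55). The summed fibroblast list held 1681, 1745, 2269 and 2083 CPM in Cancer_High and 16260, 2735, 4407 and 5698 CPM in Cancer_Low. The fractions lay closest in that sum in OT3 and OT4. col1a1a (ENSDARG00000012405), a chain of type I collagen, measured 75.6, 21.5, 41.5 and 53.5 CPM in Cancer_High and 3336, 393, 689 and 773 CPM in Cancer_Low. Every Cancer_Low library exceeded every Cancer_High library, and OT2 stood out in Cancer_Low (-4.38 ± 0.35, adjusted p = 0.000273). The matrix genes FN1 (ENSDARG00000019815) and POSTN (ENSDARG00000104267), fibronectin and periostin, and the mural cell gene RGS5 (ENSDARG00000002644) fell by log2 fold changes of -5.12 to -4.73 (adjusted p = 0.000259 for each). FLI1 (ENSDARG00000054632), an endothelial and leukocyte factor, fell (-3.82 ± 0.40, adjusted p = 0.000581). kdrl (ENSDARG00000105215), the defining endothelial receptor for VEGF, did not pass, with 15.1, 13.5, 4.21 and 20.8 CPM in Cancer_High and 17.9, 4.16, 5.73 and 20.7 CPM in Cancer_Low (0.23 ± 0.41, adjusted p = 0.689). Proteases that remodel matrix were called lower more often than higher, with 19 of 41 lower and 4 higher (median -1.3). MMP9 (ENSDARG00000042816), a gelatinase, measured 51.4, 99.4, 8.77 and 23.2 CPM in Cancer_High and 1746, 1619.8, 433 and 333 CPM in Cancer_Low (-4.64 ± 0.39, adjusted p = 0.000295), while adam19a (ENSDARG00000059693), a membrane protease, measured 257, 123, 122 and 174 CPM in Cancer_High and 53.8, 42.8, 51.1 and 85.7 CPM in Cancer_Low (1.51 ± 0.28, adjusted p = 0.00611). Without OT2, OT3, OT4 and OT5 in turn, 1, 1, 1 and 4 proteases were higher. Endothelial and mural genes called higher numbered 1 without OT5. Proteases called higher numbered 2 without the replicate block, in all 17 libraries without the block and with a filter of 1 CPM in 4 libraries.

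Epithelial genes had the lowest median of all lists, with 20 of 26 lower and 3 higher (median -4.96). krt5, a keratin of basal epithelium, measured 53.9, 33.2, 32.2 and 36.8 CPM in Cancer_High and 2045, 2981, 1398 and 1252 CPM in Cancer_Low. epcam, an epithelial adhesion molecule, measured 4.42, 4.00, 2.52 and 1.99 CPM in Cancer_High and 218, 406, 85.8 and 79.3 CPM in Cancer_Low. The simple epithelial keratins went the other way. krt8 (ENSDARG00000058358) measured 4209, 5008, 4396 and 4844 CPM in Cancer_High and 1887, 1074, 1494 and 3752 CPM in Cancer_Low. krt18b (ENSDARG00000028618), which pairs with it, measured 3351, 3246, 4406 and 3841 CPM in Cancer_High and 1302, 903, 1198 and 3064 CPM in Cancer_Low. Both rose without overlap (1.33 ± 0.32 and 1.36 ± 0.30, adjusted p = 0.0161 and 0.0128), Cancer_Low 4 was the highest Low library for both, and the difference within OT5 was small, at 0.37 and 0.33 on the log2 scale. The adjusted p rose above 0.05 for krt8 without OT2, OT3 and OT4 (adjusted p = 0.0536, 0.0618 and 0.0664) or for krt18b without OT2, OT3 and OT4 (adjusted p = 0.0523, 0.0575 and 0.0575). The summed level of the list, which includes both, overlapped between the groups, at 8644 to 10555 CPM in Cancer_High and 5601 to 10373 CPM in Cancer_Low. Without OT2, OT3 and OT4 in turn 0 members were higher, and without OT5 4.

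By their medians, retinal genes were lower in Cancer_High as well. Of 34 photoreceptor genes 28 were lower and 0 higher (median -3.61), of 18 Müller glia genes 10 lower and 0 higher (median -2.78), and of 33 retinal neuron and synapse genes 14 lower and 2 higher (median -1.65). The summed retinal neuron and synapse list overlapped between the groups, at 126 to 311 CPM in Cancer_High and 144 to 190 CPM in Cancer_Low. In OT3 and OT4 that sum was higher in Cancer_High. GNAT1 (ENSDARG00000044199), rod transducin, measured 1.55, 0.799, 0.843 and 0.644 CPM in Cancer_High and 33.3, 44.4, 33.3 and 17.2 CPM in Cancer_Low. The fractions did not overlap (-5.06 ± 0.37, adjusted p = 0.000259). saga (ENSDARG00000012610), an arrestin, measured 1.77, 0.812, 0.717 and 0.614 CPM in Cancer_High and 35.9, 28.1, 23.4 and 22.5 CPM in Cancer_Low (-4.91 ± 0.33, adjusted p = 0.000259). apoeb (ENSDARG00000040295), an apolipoprotein of retinal glia and microglia, measured 42.8, 15.4, 38.7 and 23.2 CPM in Cancer_High and 428, 411, 425 and 365 CPM in Cancer_Low (-3.87 ± 0.33, adjusted p = 0.000296). ptgdsb.2 (ENSDARG00000071626) and SLC6A9 (ENSDARG00000018534), a prostaglandin D synthase and a glycine transporter, fell as well (-4.98 ± 0.37 and -4.04 ± 0.44, adjusted p = 0.000259 and 0.000652). GRM6 (ENSDARG00000025671), a glutamate receptor of retinal bipolar cells, rose (2.11 ± 0.31, adjusted p = 0.00245). BEST1 (ENSDARG00000078331), a chloride channel of the retinal pigment epithelium, measured 32.3, 19.4, 24.4 and 55.4 CPM in Cancer_High and 3.43, 0.528, 2.76 and 28.7 CPM in Cancer_Low, and rose in each pair with overlap between the groups (3.12 ± 0.66, adjusted p = 0.0106). A call did not hold for BEST1 without OT4 (adjusted p = 0.0519). The fit without the replicate block gave an adjusted p of 0.177 for BEST1. Of 10 genes of that epithelium, 1 was higher and 2 lower. Leaving out OT2, OT3, OT4 and OT5 in turn, 1, 2, 1 and 3 retinal neuron genes were higher. Müller glia genes called higher numbered 1 in all 17 libraries without the block, by DESeq2, by limma voom, without the block and Cancer_Low 4 and without OT5. Retinal neuron genes called higher numbered 4 without the replicate block and in all 17 libraries without the block, and 5 by DESeq2.

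Glycolysis and hypoxia genes were lower or did not pass, with 19 of 44 lower and 0 higher (median -0.81). PFKP (ENSDARG00000012801), a phosphofructokinase, measured 18.5, 24.5, 10.3 and 16.05 CPM in Cancer_High and 113, 134, 78.3 and 55.7 CPM in Cancer_Low (-2.45 ± 0.28, adjusted p = 0.000786), and NDRG1 (ENSDARG00000010420), a hypoxia-induced gene, measured 0.261, 0.335, 0.0141 and 0.205 CPM in Cancer_High and 7.21, 11.12, 3.41 and 8.54 CPM in Cancer_Low (-5.46 ± 0.58, adjusted p = 0.000644). Among the dissociation stress genes, klf2a (ENSDARG00000042667), an immediate early factor, measured 2.88, 2.32, 4.29 and 2.74 CPM in Cancer_High and 84.2, 46.8, 71.0 and 31.5 CPM in Cancer_Low (-4.19 ± 0.32, adjusted p = 0.000259), and dnajb1a (ENSDARG00000099383), a heat shock co-chaperone, rose (1.13 ± 0.31, adjusted p = 0.0254). Of the remaining lists, 1 of 7 lens genes was higher and 2 lower, 0 of 11 muscle genes higher and 5 lower, and 1 of 10 erythrocyte genes higher and 6 lower. The test was no longer passed by dnajb1a without OT2, OT3 and OT4 (adjusted p = 0.0811, 0.0611 and 0.0876). For dnajb1a the adjusted p was 0.0716 without the replicate block. Glycolysis and hypoxia genes called higher numbered 1 by DESeq2, without the block and Cancer_Low 4 and without OT5. Muscle genes called lower numbered 3 in all 17 libraries without the block and 1 with a filter of 1 CPM in 4 libraries. By DESeq2 1 muscle gene was called higher. Erythrocyte genes called lower numbered 3 with that filter.

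The place of OT5 among the tissues differed between lists. For macrophage genes the median log2 differences were -3.85, -3.11, -4.55 and -2.78 in OT2, OT3, OT4 and OT5. Fibroblast genes gave -4.33, -3.13, -3.94 and -2.54, and inflammatory genes -3.16, -2.40, -2.41 and -0.97. In these lists OT5 had the smallest difference. The epithelial list gave -4.94, -5.11, -4.41 and -4.74, with OT5 within the range of the other tissues, and the cell cycle list gave 1.12, 1.13, 0.20 and 0.75, where OT4 was smallest. The dissociation stress list gave -0.93, -0.84, -0.75 and 0.60, so it turned direction in OT5, with summed levels of 13728 CPM in Cancer_High 4 and 6340 CPM in Cancer_Low 4, where Cancer_Low held the higher sum in the other 3 tissues.

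**Figure D4:**
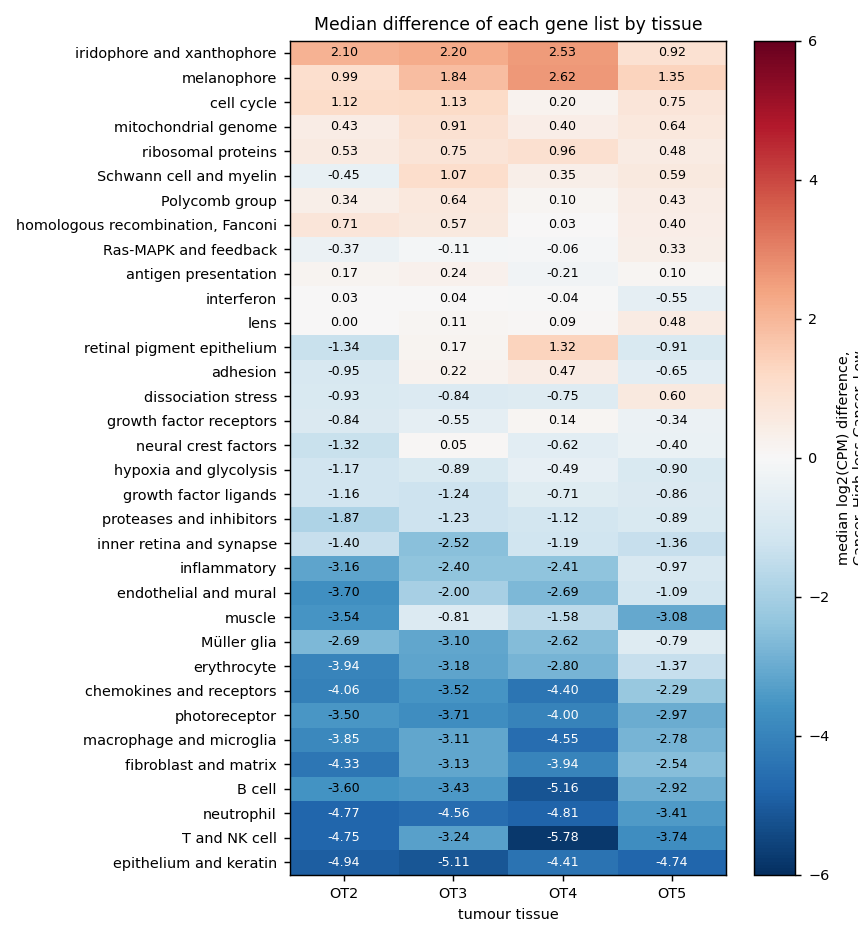
Median log2(CPM) difference between Cancer_High and Cancer_Low for each gene list (rows) in each tumour tissue (columns), with red for higher and blue for lower in Cancer_High. OT5 is nearest 0 for the macrophage, neutrophil, chemokine, fibroblast and inflammatory lists, and not for the epithelial list.

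To see which differences were particular to tumours, the High against Low difference in Cancer was compared with that in eyes labelled as before cancer (PreC, 3 pairs of libraries from fish of the same genotype, 4.5 to 4.7 months old). Of 22918 genes, 206 had a higher difference in Cancer (0.899%) and 209 a lower one (0.912%). Stage, age and library index (1 to 8 before cancer, 10 to 17 with cancer) changed together and cannot be told apart. In the PreC libraries 60.9 to 77.8% of counts from 20 to 100 were even numbers, against 51.2 to 53.9% in the Cancer libraries, and the part of this in the comparison was not tested. The PreC fractions alone gave 2560 of 21029 genes higher in High (12.2%) and 3568 lower (17%). Without PreC replicate 1, 2 or 3 in turn, 1, 19 and 95 genes were higher and 2, 31 and 51 lower, and without OT2, OT3, OT4 or OT5 in turn, 66, 192, 78 and 236 higher and 47, 167, 95 and 360 lower.

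The mitochondrial genome was the list with most calls, with 9 of 13 genes higher in this comparison and 0 lower. Its median log2 fold change of High over Low was -1.89 before cancer and 0.62 in tumours. MT-ATP6 (ENSDARG00000063911), a subunit of the ATP synthase, measured 4055, 2479 and 4208 CPM in PreC_High and 18918, 20432 and 7299 CPM in PreC_Low on the scale of all 14 libraries. On that scale it measured 5451, 4486, 5170.4 and 5780.2 CPM in Cancer_High and 4506, 2350.4, 3060.5 and 3046 CPM in Cancer_Low. The Low fraction was the higher one before cancer and the lower one in tumours, and the change of the difference was 2.75 ± 0.50 (adjusted p = 0.0283). MT-ND1 changed by 2.68 ± 0.50 (adjusted p = 0.0314). Photoreceptor genes, which mark cells rich in mitochondria, had a median of -4.98 before cancer and -3.61 in tumours, with 4 of 34 called higher. The part of retinal cells in the mitochondrial difference was not tested.

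At the other end were genes that were higher in the High fraction before cancer. cd59a (ENSDARG00000090615), a membrane inhibitor of complement that Schwann cells and myelin carry, measured 1599, 1349 and 1287 CPM in PreC_High and 32.9, 58.2 and 18.3 CPM in PreC_Low. In tumours it measured 6.41, 10.9, 15.04 and 6.48 CPM in Cancer_High and 37.0, 28.1, 17.7 and 5.45 CPM in Cancer_Low, and the change was -6.38 ± 0.72 (adjusted p = 0.00842). Within PreC it was higher in High by a log2 fold change of 5.36 ± 0.40 (adjusted p = 0.000219), and within Cancer the value was -0.97 ± 0.49 (adjusted p = 0.158). The secreted genes HTRA1 (ENSDARG00000032831), SEMA3B (ENSDARG00000011672) and EFEMP2 (ENSDARG00000094324), a serine protease, a semaphorin and a fibulin, changed by -4.97 to -4.66 (adjusted p 0.00842 to 0.0386). The myelin gene mag measured 190.2, 176 and 244 CPM in PreC_High and 5.23, 16.3 and 7.66 CPM in PreC_Low. In tumours both fractions were below 1 CPM, at 0.152, 0.219, 0.0446 and 0.201 in Cancer_High and 0.276, 0.386, 0.147 and 0.0703 in Cancer_Low. The High less Low difference of mag changed by -5.01 ± 0.72 (adjusted p = 0.0168). Of 29 Schwann cell and myelin genes 4 were lower in this comparison and 0 higher. TFEC was higher in High at both stages, with a smaller difference in tumours (-3.02 ± 0.36, adjusted p = 0.00842).

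At the positive end, opn1sw2 (ENSDARG00000017274), a blue cone opsin, and BCO2 (ENSDARG00000055722), a carotenoid-cleaving enzyme, were higher in the Low fraction before cancer, by log2 fold changes of -4.86 ± 0.33 and -3.93 ± 0.34 for High less Low (adjusted p = 0.00021 and 0.000301), and did not pass in tumours (-0.18 ± 0.43 and 0.96 ± 0.47, adjusted p = 0.765 and 0.146). opn1sw2 measured 2.49, 7.95 and 2.47 CPM in PreC_High and 80.8, 157 and 82.0 CPM in PreC_Low. In tumours it measured 1.73, 7.42, 10.7 and 9.82 CPM in Cancer_High and 5.07, 6.34, 10.6 and 6.74 CPM in Cancer_Low. Its High less Low difference changed by 4.62 ± 0.56 (adjusted p = 0.00842). BCO2 (ENSDARG00000055722), ENO1 (ENSDARG00000013750), a glycolytic enolase, and sp100.3 (ENSDARG00000090449), a nuclear body gene, changed by 4.83 ± 0.64, 4.53 ± 0.73 and 4.1 ± 0.84 (adjusted p = 0.0138, 0.0213 and 0.042). The High less Low difference of ccl44 changed by 3.87 ± 0.80 (adjusted p = 0.0429). Its High libraries held 3.68, 1.73 and 3.32 CPM before cancer and 86.5, 9.16, 62.3 and 90.9 CPM in tumours. Its Low libraries held 6.75, 7.36 and 4.99 CPM before cancer and 12.8, 1.86, 2.38 and 41.4 CPM in tumours. SOX10 (-2.78 ± 1.0, adjusted p = 0.181), MCM2 (-0.33 ± 0.74, adjusted p = 0.861) and pnp4a (-2.39 ± 0.97, adjusted p = 0.227) did not pass, which does not show that their differences were equal at both stages. Without PreC replicate 1 the adjusted p of the 13 genes given here as changed between the stages ran from 0.0573 to 0.141, so none of them passed. Without PreC replicates 2 and 3 in turn 8 and 6 of the 13 did not pass (adjusted p up to 0.12), and without OT2, OT3, OT4 and OT5 in turn 5, 2, 4 and 1 did not (adjusted p up to 0.103). The change of ccl44 had an adjusted p of 0.208 without the replicate block, and the other 12 still passed.

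**Figure D5:**
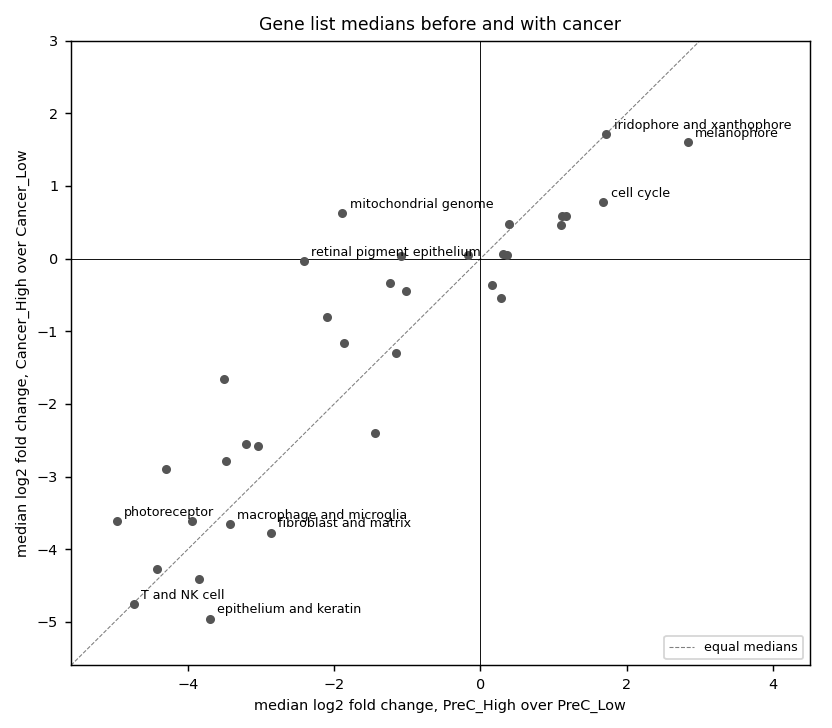
Median log2 fold change of High over Low for each gene list (1 point per list) before cancer (x axis) and in tumours (y axis), with a dashed line at equal medians. The mitochondrial genome lies in the upper left, below 0 before cancer and above 0 in tumours, and the pigment cell lists are above 0 at both stages.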

How the data were processed

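Counts per gene were deposited by the authors as whole numbers for 31701 Ensembl gene IDs in 17 libraries and were used as they stand. Tools named in the submitters' processing notes are FastQC, STAR, HTSeq and DESeq2, with danRer10 as the build. Their versions, the annotation release and whether counting used strand were not stated in the sources used, so reads of paralogous or overlapping genes may be split or shared. Libraries were polyadenylated RNA prepared with a strand-specific kit and read from both ends, per the labels. Part of the genotype and some list members are not reported here by name. Coordinates and sequences were not used here.

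The comparison was fitted with edgeR 4.0.16 (R 4.3.3, limma 3.58.1) by the quasi-likelihood test, with TMM scaling, on the 8 Cancer libraries with tissue as a block, and p-values were adjusted by Benjamini and Hochberg over all 20916 genes left after edgeR's filter (minimum count 10, total 15). Low libraries correlated with the High library of the same tissue after group means were removed (0.345, 0.335, 0.349 and 0.443). Every other pair of a High and a Low library was negative. Removing the means pulls these other pairs below 0 on average where the same-tissue value is positive, so their sign is not separate evidence. The tissue codes in the labels give the pairing. The stage comparison was the interaction in 1 fit of 14 libraries. DESeq2 1.42.0, limma voom, other filters and scalings, fits without the block and fits without each tissue were the alternatives. In data simulated for Cancer_High against Cancer_Low, 20626 genes were tested. Of those changed by 1.5 on the log2 scale 22.3% were recovered, and of those changed by 3, 79.8%. The simulation changed a far smaller share of genes than the 35.8% called here, and its spread between tissues was set by hand. With p-values adjusted over all genes, these shares do not give the power of this comparison. In data simulated the same way for the stage comparison, 1.02% of genes changed by 1.5 and 35.4% of those changed by 3 were recovered. The small number of genes called between the stages therefore does not show that few changed. A gene that did not pass is not shown to be unchanged.

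The text names the 12 largest changes each way among called genes at a mean log2 CPM of at least 3. These genes also had groups without overlap, a call kept without each tissue in turn and a symbol that was not provisional. Named as well are up to 4 genes of each list, and genes added after their values were seen. The comparison, the 34 gene lists and the alternatives were chosen with earlier results of these data known, and list matching was extended after the symbols in the table were seen. The lists match 1143 IDs, of which 1030 passed the filter, and 64 are on more than 1 list. Each list is described over its tested members only. List counts are set beside the shares of all genes and were not tested.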

Additional observations from a re-analysis of the deposited data

Results flagged for a closer look

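Single libraries lay apart from the other 3 of their group, by a gap above Dixon's 95% critical value for 4 values, in 42 of the 368 groups of 4 values tested. The gap is judged against the range of the 4 values, so it can be small in CPM. For independent values of a normal distribution about 1 in 20 groups would pass this limit. CPM were tested unlogged, for chosen genes that can vary together, so the 42 are not read as an excess. Of the 42 values, 16 were in Cancer_Low 4, the Low library of OT5, and 1 to 6 in each other library. Cancer_High 1 was the highest for twist1a at 1.46 CPM (others 1.26 to 1.29), brca2 at 11.9 CPM (others 8.74 to 9.19), HBEGF at 30.9 CPM (others 4.41 to 5.72) and RASA1 (ENSDARG00000073665) at 128 CPM (others 55.0 to 63.0). It was also the highest for saga at 1.77 CPM (others 0.614 to 0.812) and the summed melanophore list at 1265 CPM (others 965 to 966). Cancer_High 2 was the highest for DCT at 12.6 CPM (others 1.54 to 3.36), lyz at 14.4 CPM (others 0.702 to 2.91) and f5 at 12.03 CPM (others 0.336 to 1.81). Cancer_High 2 was the lowest for snai2 at 15.6 CPM (others 89.7 to 95.8). Cancer_High 3 was the highest for PCDH10 (ENSDARG00000099729) at 83.0 CPM (others 13.3 to 25.0), ITGB4 at 5.70 CPM (others 2.02 to 2.21) and MDK (ENSDARG00000020708) at 151 CPM (others 7.60 to 24.9). Cancer_High 4 was the highest for PAICS at 812 CPM (others 319 to 344), nkl.2 at 5.02 CPM (others 0.576 to 1.23) and MITF (ENSDARG00000037833) at 8.32 CPM (others 2.67 to 2.99). Cancer_High 4 was the lowest for csf1rb at 3.47 CPM (others 7.48 to 7.99) and the summed interferon list at 2548 CPM (others 5078 to 5592). Cancer_Low 1 was the highest for MDK (ENSDARG00000036036) at 187 CPM (others 90.2 to 104) and col1a1a at 3336 CPM (others 393 to 773). Cancer_Low 2 was the highest for lyz at 562 CPM (others 67.3 to 122), cldni at 195 CPM (others 89.6 to 103), NRG1 at 28.4 CPM (others 16.3 to 18.3) and the summed erythrocyte list at 407 CPM (others 12.3 to 45.9). Cancer_Low 2 was the lowest for MT-ND1 at 1088 CPM (others 1397 to 1435). Cancer_Low 3 was the highest for lck at 68.2 CPM (others 7.87 to 10.7). Cancer_Low 4 was the highest for SOX10 at 383 CPM (others 14.96 to 69.7), PAICS at 152 CPM (others 57.4 to 71.6), ATIC at 110.5 CPM (others 41.2 to 46.7) and pnp4a at 797 CPM (others 9.11 to 94.1). It was also the highest for PHACTR3 (ENSDARG00000058243) at 6.64 CPM (others 1.14 to 1.98), PCDH10 (ENSDARG00000102824) at 138 CPM (others 9.72 to 22.7), MET at 82.5 CPM (others 2.03 to 11.8) and EDNRB (ENSDARG00000089334) at 152 CPM (others 1.36 to 16.8). It was also the highest for FZD7 (ENSDARG00000027589) at 234 CPM (others 10.6 to 27.9), egf at 236 CPM (others 3.70 to 27.6), TGFA at 203 CPM (others 3.02 to 25.3) and RPL11 at 1712 CPM (others 998 to 1060.5). It was also the highest for BEST1 at 28.7 CPM (others 0.528 to 3.43) and the summed retinal pigment epithelium list at 72.6 CPM (others 7.33 to 13.3). Cancer_Low 4 was the lowest for tspan36 at 123 CPM (others 279 to 301) and blnk at 29.1 CPM (others 154 to 164).

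The difference between High and Low changed from pre-cancer to cancer, by the interaction test of the 14 libraries at an adjusted p under 0.05, for 17 of the genes named. On the log2 scale the change was negative for SOX9 (ENSDARG00000043923) (-3.72), mag (-5.01), TFEC (-3.02), cldnb (-1.77), adam19a (-1.87), cd59a (-6.38), HTRA1 (ENSDARG00000032831) (-4.97), SEMA3B (-4.73) and EFEMP2 (ENSDARG00000094324) (-4.66). It was positive for MT-ND1 (2.68), MT-ATP6 (2.75), ccl44 (3.87), GRM6 (ENSDARG00000025671) (3.85), BCO2 (ENSDARG00000055722) (4.83), opn1sw2 (4.62), ENO1 (ENSDARG00000013750) (4.53) and sp100.3 (4.1). These calls rest on 3 PreC pairs, and 1 gene of all those tested was higher without PreC replicate 1 and 2 were lower. None of SOX9, cldnb, adam19a and GRM6 passed without PreC replicate 1 (adjusted p 0.105 to 0.142). Nor did any of them without OT2 or without OT4 (adjusted p 0.0606 to 0.157). Without the replicate block the adjusted p was 0.245 for cldnb and 0.123 for GRM6, and with RLE scaling it was 0.0595 for cldnb.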

How the results depend on the processing

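Without the replicate block that pairs the fractions by tissue, 1936 genes were higher and 3926 lower in Cancer_High, against 3086 and 4408 with it. Of these, 1806 and 3779 are shared with the paired fit. Leaving out 1 tissue gave 947 to 3574 genes higher and 2791 to 4814 lower. The cause was not tested. The share of higher genes among all calls was 41.2%, and it was 33.0% without the block and 25.3%, 29.0% and 24.9% without OT2, OT3 and OT4. RLE scaling, other filters, the 17-library fits, DESeq2 (4498 higher, 5344 lower) and limma voom (3628 higher, 4730 lower) stayed within 1.5 times both counts over all genes, though not for every gene list. No gene of the paired fit was called in the opposite direction under any of these alternatives. Of 150 of the genes named, 128 kept their direction and side of the threshold without the block, and 131, 136, 127 and 144 without OT2, OT3, OT4 and OT5. Without OT5, 4 of the 150 lost their call and 2 gained one. Part of these genes were chosen for a small adjusted p or a call kept without each tissue. Their shares are therefore partly set by the choice and do not stand for all calls. Of all calls, 694 of the 3086 higher and 2617 of the 4408 lower were kept without each tissue in turn.

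For the stage comparison limma voom called 473 genes higher and 426 lower, and leaving out 1 tissue gave 1 to 236 higher and 2 to 360 lower. Genes that turned direction were uncalled in Cancer under every setting that turned them. The log2 fold change of cd79a ran from -0.40 to 0.077 without 1 tissue, turning to 0.077 without OT4, and was 0.0087 without the block and Cancer_Low 4. For kdrl it ran from -0.23 to 0.47, for ENO1 (ENSDARG00000013750) from -0.23 to 0.82 and for opn1sw2 from -0.42 to 0.28. opn1sw2 was at 0.035 without the block, 0.036 without it over 17 libraries and 0.011 without it and Cancer_Low 4. The cause was not tested. At 73123965 counts or more per library, genes below 1 CPM are the ones that counting error touches most.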
